A study of Cricetulus griseus with 24 samples.

Results

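The Bcl2 family of apoptosis regulators was followed across 3 Chinese hamster ovary (CHO) cell lines and 2 growth phases. The 10 members were the rows of the deposited count table that carry the gene symbols Bcl2, Bcl2l1, Bcl2l2, Mcl1, Bax, Bak1, Bok, Bid, Bad and Bcl2l11, out of 28037 genes in the table. All 10 passed the filter on low counts, which asked for at least 1 count in at least 2 libraries, but Bok was at or near 0 throughout. It had between 0 and 2 counts in every culture, at or under the floor of 3 counts in all 6 groups, and no fold change is given for it. The counts of members below are therefore out of the other 9.

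Proteins of this family decide whether the outer membrane of the mitochondrion stays intact. Bcl2, Bcl2l1 (Bcl-xL), Bcl2l2 (Bcl-w) and Mcl1 are survival members, which hold the effectors Bax and Bak1 in check. Bid, Bad and Bcl2l11 (Bim) carry the BH3 domain alone and act upstream, by binding survival members or, for Bid and Bcl2l11, by engaging effectors directly. In CHO cultures the family is known for its part in the loss of viability late in batch culture, and survival members have been overexpressed in CHO lines to prolong it.

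A0 was a low-producing clone of CHO DG44 that made a humanized antibody. It carried the antibody heavy chain and light chain on separate plasmids, each with a selection marker. A1 was the high-producing progeny of A0 after amplification with methotrexate, and CHO-S was the line without an antibody that served as the negative control. Each line was sampled at exponential and at stationary phase, with 4 cultures of A0 and 3 of A1 and CHO-S at each phase. The 8 exponential libraries of A0 carried 4 culture numbers and were summed by culture. Each producing line was 1 clone, and CHO-S came from another host, so host, transgene and selection cannot be told apart where A0 or A1 is set against CHO-S. The titles of the CHO-S libraries carry the prefix NDST, which the labels do not explain.

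The libraries held 1038026 to 14652646 reads counted on genes. CHO-S stationary culture 1 was the shallowest of the 24 libraries and stood apart, with a mean correlation of 0.879 to the other cultures of its group over log2 levels, whereas those correlated with each other at 0.996. Calls of the members that rest on it are given with and without it. The reads that fell on no counted gene made up 31.8% to 49.8% of each library, with the highest share in that culture. Vim, a mesenchymal filament gene of CHO cells, lay between 728 and 1465 CPM (a count scaled to the size of its library) in all 20 cultures. All levels below are CPM after normalization by the trimmed mean of M values (TMM), and all adjusted p-values come from edgeR's quasi-likelihood test over all genes tested.

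**Figure D1:**
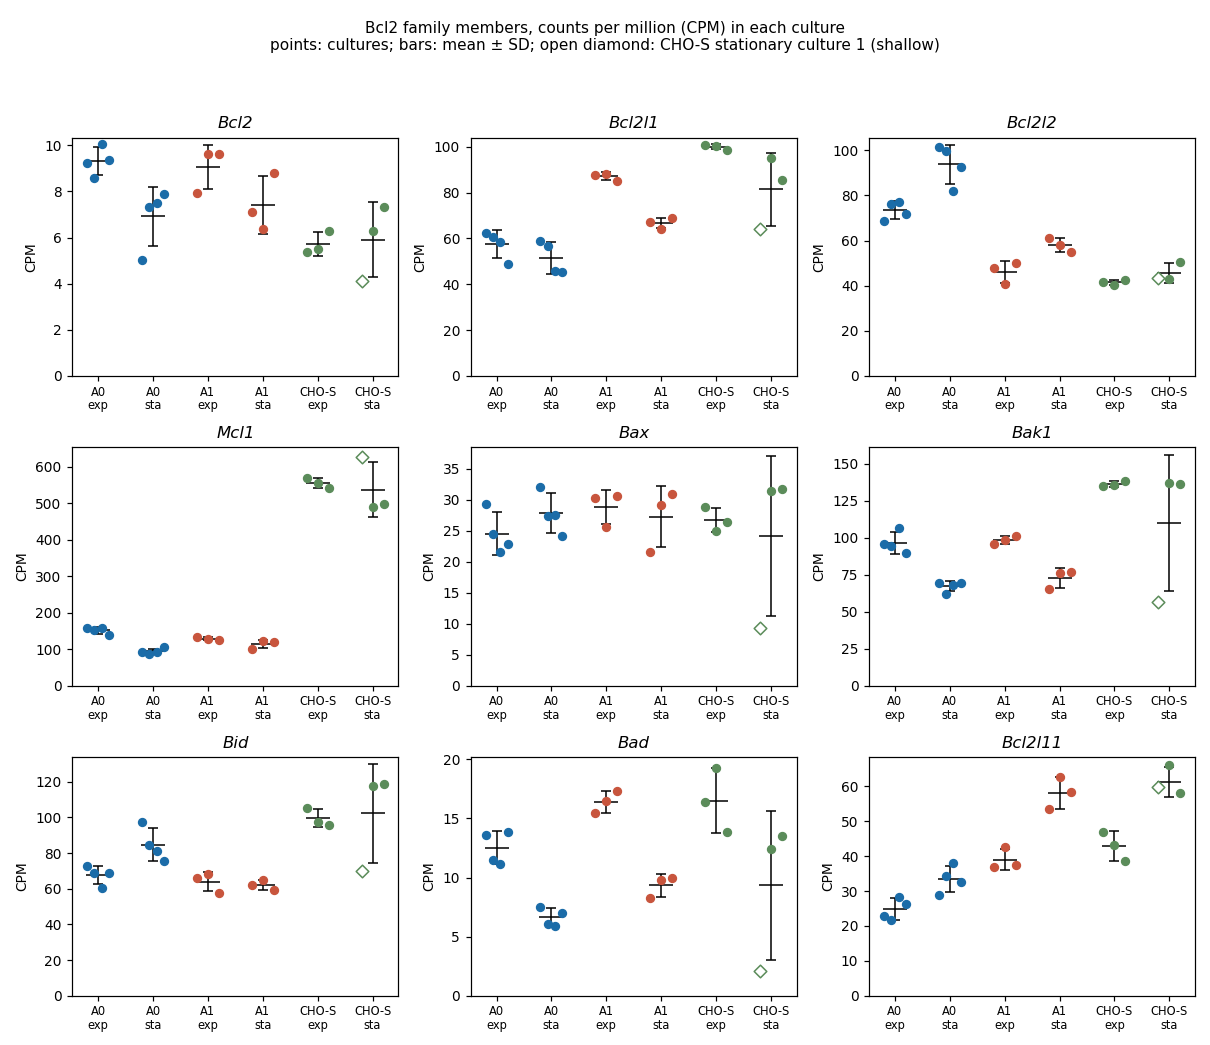
Level of each member in each culture (CPM, linear axis from 0) for A0, A1 and CHO-S at exponential (exp) and stationary (sta) phase. Points are cultures, horizontal bars are means and whiskers are SD. Mcl1 is at 489.8 CPM or more in every CHO-S culture and at 159 CPM or less in every A0 and A1 culture, and CHO-S stationary culture 1 (open diamond) lies apart for Bax, Bak1, Bid and Bad.

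The first question was how the family changed as each line left exponential growth. In A0, 7 of the 9 members passed the test, 3 higher and 4 lower at stationary phase, where 37.6% of all genes tested were called, 17.6% higher and 20% lower. In A1, 5 members passed, 2 higher and 3 lower, against 33.4% of all genes, 15.6% higher and 17.8% lower. With all 6 groups in one fit only Bad and Bcl2l11 passed in A1, and the calls of Bcl2l1, Bcl2l2 and Bak1 were lost. That fit called 2469 of all genes, against 6196 in the main one. Among genes with a mean of at least 5 CPM, as all 9 members have in both lines, 55.1% were called in A0 and 50.9% in A1. Over all genes tested, the cultures of the 2 phases did not overlap for 35.7% in A0, 43.1% in A1 and 36.4% in CHO-S. In CHO-S only Bcl2l11 passed with all 3 stationary cultures, against 13.3% of all genes, and 6 members passed without stationary culture 1, against 47.7% of all genes and 67.5% of those with at least 5 CPM. The share of reads on no counted gene moved with phase, from 31.8% to 36.6% in the A0 exponential libraries to 38.6% to 40.0% at stationary phase and from 33.8% to 35.4% to 39.2% to 40.8% in A1, and its part in these results was not tested. RNA came from whole cultures, so fewer cells with a transcript and less of it per cell cannot be told apart.

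**Figure D2:**
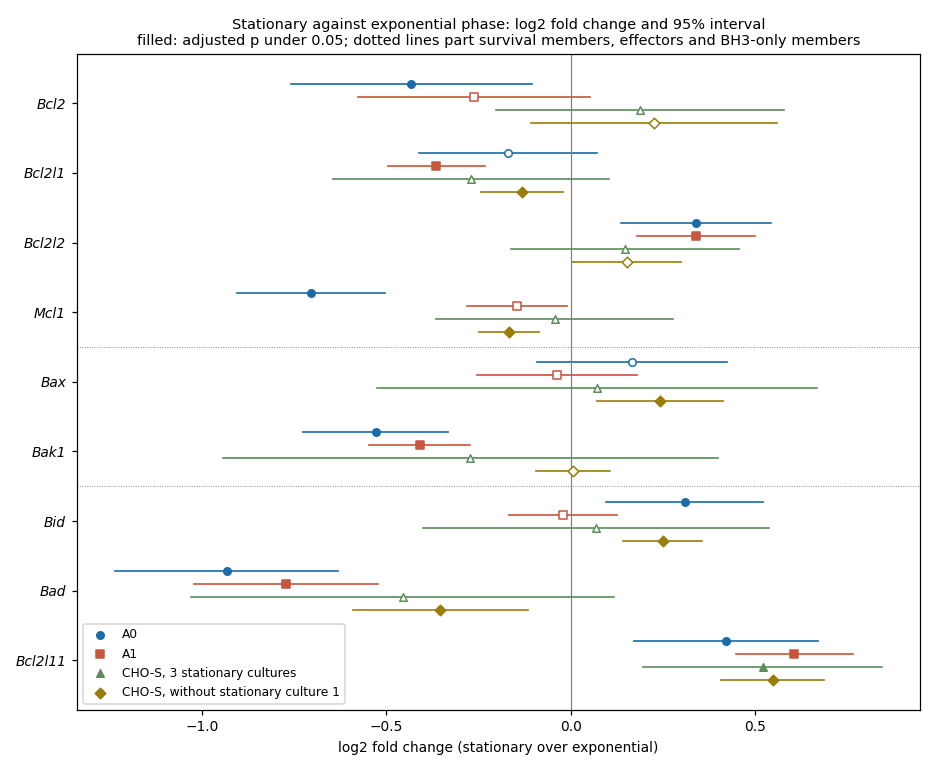
Log2 fold change of each member at stationary over exponential phase, with its 95% interval, for A0, A1 and CHO-S with and without stationary culture 1. Filled symbols have an adjusted p under 0.05. Bcl2l11 lies to the right of 0 in all 4 fits, Bad lies to the left in all 4, and the value of Mcl1 is lowest in A0.

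Mcl1, a short-lived survival protein that responds quickly to stress, had 158, 152, 159 and 139 CPM in the 4 exponential A0 cultures and 91.9, 86.4, 92.0 and 105 CPM at stationary phase. The groups did not overlap, and Mcl1 fell to 0.614 times its exponential level (log2 fold change -0.70, SE 0.09, adjusted p = 2.1e-05). A1 had 132, 129 and 126 CPM at exponential phase and 100.8, 123 and 119 CPM at stationary phase. The A1 groups did not overlap either, but the difference of -0.15 (95% interval -0.28 to -0.01) did not pass (adjusted p = 0.094). It passed only without stationary culture 2 (-0.20, adjusted p = 0.043). In CHO-S the levels were 569, 556 and 540 CPM at exponential phase and 625, 489.8 and 497 CPM at stationary phase, with the highest value in the shallow culture. The CHO-S difference was -0.04 (adjusted p = 0.87) with that culture and -0.17 (adjusted p = 0.00036) without it.

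Bcl2l1, the survival member most used to engineer CHO lines, fell in A1. It had 87.9, 88.3 and 85.1 CPM in exponential A1 cultures and 67.3, 64.3 and 68.9 CPM in stationary ones, a clear separation and a log2 fold change of -0.36 (SE 0.06, adjusted p = 3.7e-05). In A0 the ranges overlapped, with 62.6, 60.5, 58.6 and 48.8 CPM against 58.7, 56.6, 45.9 and 45.3 CPM, and the difference of -0.17 did not pass (adjusted p = 0.27). The stationary culture was the lower one in all 4 same-numbered pairs, and the difference did not pass with the cultures paired either. In both A0 phases cultures 1 and 2 lay above culture 4. CHO-S had 101.01, 100.5 and 98.8 CPM at exponential phase and 64.0, 95.2 and 85.5 CPM at stationary phase. All 3 stationary values lay below the exponential ones, with differences of -0.27 (adjusted p = 0.32) and, without stationary culture 1, -0.13 (adjusted p = 0.042).

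Bcl2l2, a survival member close to Bcl2l1 in sequence, rose in both producing lines. A0 went from 68.7, 76.3, 77.2 and 71.7 CPM to 101.2, 99.5, 81.9 and 92.5 CPM, a log2 fold change of 0.34 (SE 0.10, adjusted p = 0.0098). A1 went from 48.0, 40.5 and 49.9 CPM to 61.0, 57.9 and 54.9 CPM, again 0.34 (SE 0.08, adjusted p = 0.00091). Neither line overlapped between phases. In CHO-S the levels of 41.5, 40.4 and 42.7 CPM and of 43.3, 42.9 and 50.7 CPM did not overlap but lay close together, with a difference of 0.15 that did not pass with the shallow culture (adjusted p = 0.51) or without it (adjusted p = 0.087).

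Bcl2, the founding survival member, was low in every line. It fell in A0, from 9.24, 8.59, 10.05 and 9.38 CPM to 5.03, 7.31, 7.48 and 7.87 CPM (log2 fold change -0.43, SE 0.15, adjusted p = 0.036). The groups did not overlap, but the call was lost without exponential culture 1, 3 or 4 or stationary culture 1 or 2, at values from -0.46 to -0.31 (adjusted p from 0.053 to 0.11). In A1 the levels of 7.94, 9.64 and 9.60 CPM and of 7.11, 6.37 and 8.82 CPM overlapped, with a difference of -0.26 (adjusted p = 0.21). CHO-S had 5.36, 5.51 and 6.30 CPM and 4.13, 6.30 and 7.32 CPM, where 4.13 CPM stood for 4 counts, and its difference did not pass with that culture (0.19, adjusted p = 0.50) or without it (0.23, adjusted p = 0.28).

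Of the effectors, which form the pore in the outer membrane, Bak1 fell in both producing lines. A0 had 95.6, 94.3, 107 and 89.5 CPM at exponential phase and 69.7, 62.1, 68.3 and 69.8 CPM at stationary phase (log2 fold change -0.53, SE 0.09, adjusted p = 0.00026). A1 had 95.9, 98.5 and 101.2 CPM and then 65.1, 76.4 and 76.7 CPM (-0.41, SE 0.07, adjusted p = 1.3e-05). All stationary cultures of A0 and A1 lay below all their exponential cultures. CHO-S had 135, 136 and 139 CPM at exponential phase, and its stationary cultures had 56.8, 137 and 137 CPM. The low value was that of the shallow culture, and the difference was -0.27 (adjusted p = 0.58) with it and 0.01 (95% interval -0.10 to 0.11, adjusted p = 0.96) without it.

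Bax, the effector that waits in the cytosol, overlapped between phases in A0 and A1. A0 had 29.3, 24.5, 21.5 and 22.8 CPM and then 32.0, 27.4, 27.5 and 24.2 CPM, a difference of 0.17 (95% interval -0.09 to 0.43, adjusted p = 0.31). It was higher at stationary phase in all 4 same-numbered pairs and did not pass with the cultures paired. A1 had 30.2, 25.6 and 30.6 CPM and then 21.6, 29.2 and 31.0 CPM, a difference of -0.04 (95% interval -0.25 to 0.18, adjusted p = 0.84). In CHO-S the exponential cultures had 28.8, 24.9 and 26.4 CPM, whereas the stationary ones had 9.29, 31.4 and 31.7 CPM. Culture 1 had 9 counts of Bax. Without it Bax rose by 0.24 (adjusted p = 0.015), and with it the difference was 0.07 (adjusted p = 0.89). Bok, the effector of the family known for acting without Bax and Bak1, was at most at 2 counts in each culture of every line and phase.

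Bcl2l11, a BH3-only protein that binds every survival member, was the member whose rise passed the test in each of the 3 lines. A0 went from 22.8, 21.7, 28.4 and 26.3 CPM to 28.8, 34.4, 38.0 and 32.5 CPM (log2 fold change 0.42, SE 0.12, adjusted p = 0.0096). A1 went from 37.0, 42.5 and 37.5 CPM to 53.5, 62.7 and 58.5 CPM, which is 1.52 times as high (0.61, SE 0.08, adjusted p = 2.3e-07). CHO-S went from 47.1, 43.3 and 38.6 CPM to 59.9, 66.1 and 58.0 CPM (0.52, SE 0.14, adjusted p = 0.048). Phases did not overlap in any of the lines, and here the shallow culture lay within the range of its group. Without it the CHO-S rise was 0.55 (adjusted p = 1.1e-10), while without any one of the other 5 CHO-S cultures the value was 0.45 to 0.59 and did not pass (adjusted p from 0.12 to 0.21). Those 5 fits called 0 to 574 of all genes, against 2308 with all cultures.

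Bad, which binds Bcl2, Bcl2l1 and Bcl2l2 and is switched off by survival kinases, fell in both producing lines. A0 had 13.6, 11.5, 11.2 and 13.9 CPM at exponential phase and 7.54, 6.05, 5.92 and 6.97 CPM at stationary phase, 0.524 times as high (log2 fold change -0.93, SE 0.14, adjusted p = 7.3e-05). A1 had 15.5, 16.5 and 17.3 CPM and then 8.25, 9.83 and 9.99 CPM (-0.77, SE 0.12, adjusted p = 7e-06). The phases stood well apart in both lines. CHO-S had 16.4, 19.3 and 13.8 CPM and then 2.06, 12.4 and 13.5 CPM, where 2.06 CPM stood for 2 counts. The CHO-S difference was -0.46 (adjusted p = 0.27) with that culture and -0.35 (adjusted p = 0.0097) without it. The 2 exponential libraries of A0 culture 1 differed from each other for Bad, at 10.4 CPM in the first and 16.3 CPM in the one marked RLT, and for Bcl2, at 11.2 and 7.47 CPM. They also differed for Bcl2l11, at 26.2 and 19.7 CPM, and for Bcl2l2, at 78.5 and 59.8 CPM. These log2 differences of -0.41 and -0.39 were about as large as the A0 phase responses of these 2 genes, 0.42 and 0.34.

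Bid, which links caspase-8 to the mitochondrion once it is cleaved, rose in A0 from 72.6, 69.0, 60.4 and 68.9 CPM to 97.2, 84.5, 81.2 and 75.7 CPM (log2 fold change 0.31, SE 0.10, adjusted p = 0.023). The groups did not overlap, but the call was lost without exponential culture 3 or stationary culture 1 or 2, at 0.23 to 0.30 (adjusted p from 0.052 to 0.097). In A1 Bid had 65.9, 68.2 and 57.8 CPM and then 62.0, 65.1 and 59.4 CPM, overlapping ranges with a difference of -0.02 (95% interval -0.17 to 0.13, adjusted p = 0.88). CHO-S had 105, 97.7 and 95.5 CPM and then 70.2, 118 and 119 CPM. Bid rose there by 0.25 without stationary culture 1 (adjusted p = 4.5e-05), and the difference was 0.07 with it (adjusted p = 0.86).

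The second exponential library of A0 cultures 1 and 2 was marked RLT and that of cultures 3 and 4 Duplicate, and the phase response was also fitted within each pair, a choice made after the values were seen. With cultures 1 and 2 alone 6 of the 9 members passed, all but Bcl2 of the 7, and with cultures 3 and 4 alone 3 passed. Over all genes the calls also fell, from 7737 to 5016 in these fits, and why fewer members passed with the second pair was not tested. Those 3 were Mcl1, Bak1 and Bad. In the second pair Bcl2l2 had a difference of 0.23 (adjusted p = 0.15), Bcl2l11 one of 0.37 (adjusted p = 0.07), Bid one of 0.28 (adjusted p = 0.10) and Bcl2 one of -0.34 (adjusted p = 0.13).

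Whether the phase response differed between lines was tested by the interaction of line and phase. Between A1 and A0, Mcl1 was the 1 member called, against 8.92% of all genes and 15.8% of those with at least 5 CPM. Its log2 fold change from exponential to stationary phase was higher in A1 by 0.51 (SE 0.12, 95% interval 0.26 to 0.77, adjusted p = 0.011), and the call was lost without A1 stationary culture 2 (0.46, adjusted p = 0.052). Bid came next, with an interaction of -0.37 (95% interval -0.65 to -0.08) that did not pass (adjusted p = 0.10) but did with the culture number as a replicate block (-0.37, adjusted p = 0.038), a fit that called 3432 of all genes against 1871 without the block. For the other 7 members the interaction lay between -0.25 and 0.14, with adjusted p from 0.39 to 0.97.

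Against CHO-S, Mcl1 was again the 1 member called for A0, against 10.3% of all genes, with an interaction of -0.66 (SE 0.17, adjusted p = 0.017). This call was lost without A0 stationary culture 2 (-0.59, adjusted p = 0.062), CHO-S exponential culture 2 (-0.66, adjusted p = 0.051) or CHO-S exponential culture 3 (-0.64, adjusted p = 0.057). Without CHO-S stationary culture 1 the value for Mcl1 was -0.49 (adjusted p = 0.0075) and Bak1 passed as well (-0.49, adjusted p = 0.0070), against 17.2% of all genes. For A1 against CHO-S, edgeR called 0 members, with 0 at an unadjusted p under 0.05 and 0 by DESeq2, against 7.6% of all genes. Without CHO-S stationary culture 1, 3 members passed, against 25.4% of all genes and 43.2% of those with at least 5 CPM. They were Bak1 (-0.43, adjusted p = 6.2e-05), Bid (-0.29, adjusted p = 0.015) and Bcl2l1 (-0.25, adjusted p = 0.035). The 3 interaction tests share groups with one another and are not independent.

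The second question was how the amplified line differed from its parent at the same phase. At exponential phase 4 members passed between A1 and A0, 3 higher and 1 lower in A1, against 25.7% of all genes tested, 12% higher and 13.8% lower, and 38% of those with at least 5 CPM. Bcl2l1 stood at 87.1 ± 1.77 CPM (SD, n = 3) in A1, against 57.6 ± 6.12 (SD, n = 4) for A0, 1.51 times as high (log2 fold change 0.59, SE 0.10, adjusted p = 0.00044). Bcl2l11 was 1.57 times as high in A1 (0.65, SE 0.11, adjusted p = 0.00054), at 39.0 ± 3.05 against 24.8 ± 3.10 CPM. Bcl2l2 went the other way, with 46.2 ± 4.96 CPM in A1 and 73.5 ± 3.99 in A0 (-0.67, SE 0.10, adjusted p = 0.00019). For these 3 genes the lines did not overlap, as was so for 34.3% of all genes tested. Bad was higher in A1 by 0.39 (adjusted p = 0.033), again without overlap, but this call was lost without A0 culture 2 or 3 or any 1 of the A1 cultures, at 0.33 to 0.43 (adjusted p from 0.068 to 0.14). Mcl1 lay lower in every A1 culture, with a difference of -0.24 that just missed the threshold (adjusted p = 0.058) and passed without A0 culture 4 (-0.28, adjusted p = 0.010). Bak1, Bid and Bcl2 differed by 0.03, -0.09 and -0.04, with 95% intervals within -0.33 and 0.25, and Bax by 0.23 (95% interval -0.03 to 0.49, adjusted p = 0.19).

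At stationary phase 6 members passed between A1 and A0, 4 higher and 2 lower in A1, against 33.7% of all genes, 16% higher and 17.7% lower, and 48% of those with at least 5 CPM. Bcl2l11 stood at 58.2 ± 4.61 CPM (SD, n = 3) in A1, against 33.4 ± 3.80 (SD, n = 4) for A0, 1.73 times as high (log2 fold change 0.79, SE 0.10, adjusted p = 3.9e-05). Bcl2l2 was at 57.9 ± 3.04 and 93.8 ± 8.77 CPM, 0.612 times as high in A1 (-0.71, SE 0.09, adjusted p = 3.1e-05). Bid, which had not differed beyond the spread at exponential phase, was lower in A1 at stationary phase, at 62.2 ± 2.85 against 84.7 ± 9.14 CPM (-0.45, SE 0.09, adjusted p = 0.0012). Cultures of A0 and A1 did not overlap for these 3 genes, nor for Bcl2l1 and Bad, which were higher in A1 by 0.36 (adjusted p = 0.012) and 0.50 (adjusted p = 0.017). Over all genes tested, 39.9% did not overlap between A1 and A0 at this phase. The call for Bcl2l1 did not hold without A1 culture 3 (0.33, adjusted p = 0.060) and that for Bad without A1 culture 2 or 3 (0.47 and 0.45, adjusted p = 0.077 and 0.088). Mcl1 was higher in A1 by 0.28 (adjusted p = 0.025), with overlap of the groups, and did not pass without A0 culture 2 or A1 culture 2 or 3 (0.24, 0.23 and 0.24, adjusted p from 0.060 to 0.14). In mean, Mcl1 thus lay lower in A1 at exponential phase, where the difference did not pass, and higher at stationary phase. Bax, Bak1 and Bcl2 differed by -0.02, 0.10 and 0.09, none of which passed.

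**Figure D3:**
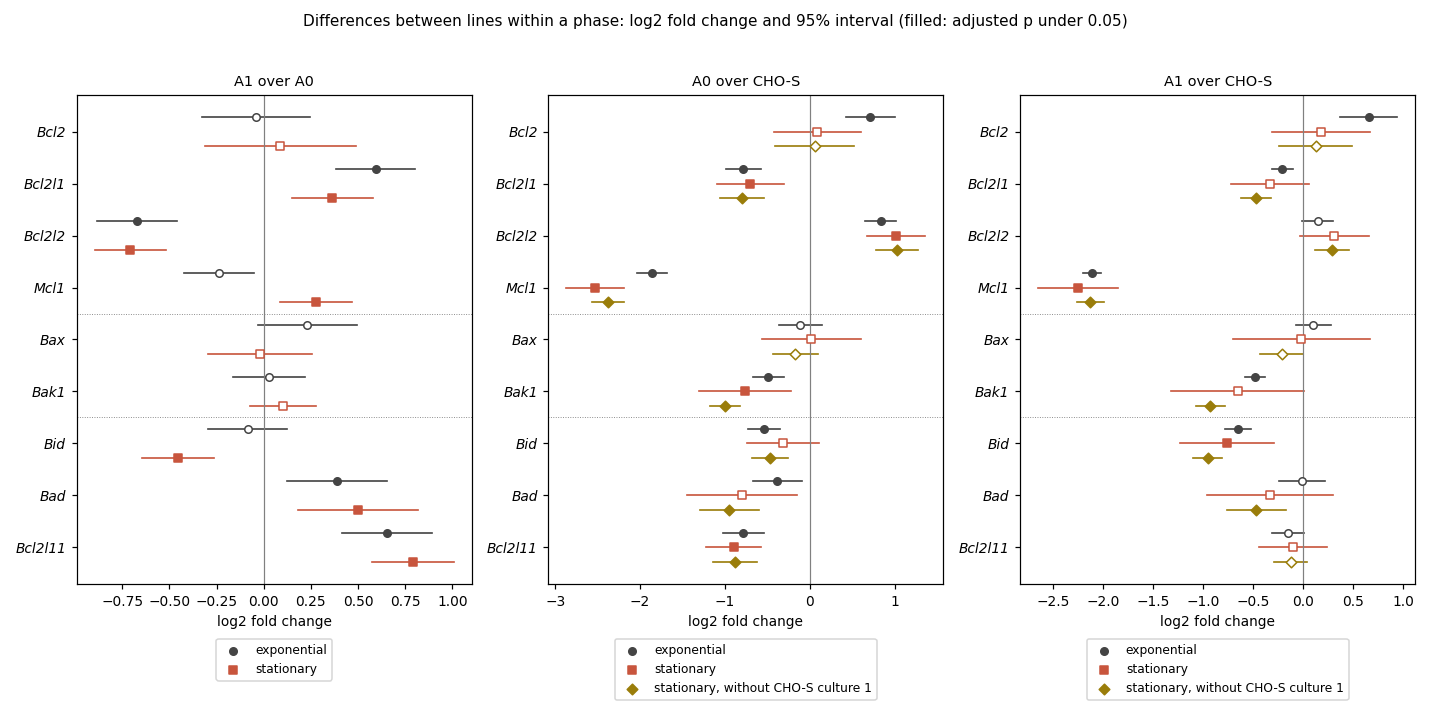
Log2 fold change of each member between lines at exponential and stationary phase, with its 95% interval, for A1 over A0, A0 over CHO-S and A1 over CHO-S. Filled symbols have an adjusted p under 0.05, and diamonds leave out CHO-S stationary culture 1. Bcl2l2 and Bcl2l1 lie on opposite sides of 0 in the A1 over A0 panel, and Mcl1 lies near -2 in both CHO-S panels.

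The third comparison set each producing line against CHO-S, with the same CHO-S cultures serving for both. At exponential phase 8 members passed for A0, 2 higher and 6 lower than in CHO-S, against 49.2% of all genes tested, 27.4% higher and 21.8% lower, and 65.7% of those with at least 5 CPM. For A1 5 members passed, 1 higher and 4 lower, against 57.2% of all genes, 30% higher and 27.1% lower, and 76.2% of those with at least 5 CPM. The widest gap was that of Mcl1, at 555 ± 14.3 CPM (SD, n = 3) in CHO-S, against 152 ± 9.32 (SD, n = 4) for A0 and 129 ± 3.18 (SD, n = 3) for A1. Its log2 fold changes were -1.86 for A0 (SE 0.08, adjusted p = 2.5e-10) and -2.11 for A1 (SE 0.04, adjusted p = 5.5e-21), and no culture of either producing line came near the CHO-S range.

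Bcl2 was the 1 member higher in both producing lines, at 9.31 ± 0.597 CPM in A0 and 9.06 ± 0.9753 in A1 against 5.72 ± 0.507 in CHO-S (log2 fold change 0.71 with adjusted p = 0.00049 for A0, and 0.66 with adjusted p = 0.00025 for A1). Bcl2l1 was lower by 0.79 in A0 and by 0.21 in A1 on the log2 scale (adjusted p = 7.5e-06 and 0.001). Bcl2l2 was higher in A0 by 0.83 (adjusted p = 1.6e-06), whereas in A1 the difference of 0.15 did not pass (adjusted p = 0.091) except without A1 culture 2 (0.22, adjusted p = 0.0050). Among effectors and BH3-only members, Bak1 was lower in both lines, by 0.49 in A0 and 0.48 in A1, and so was Bid, by 0.54 and 0.65. No culture of A0 or A1 reached the CHO-S range of either gene. Over all genes tested, 53.5% did not overlap between A0 and CHO-S and 61.9% between A1 and CHO-S. Bcl2l11 was lower in A0 (-0.78, adjusted p = 4.2e-05), and in A1 the difference of -0.15 (adjusted p = 0.10) passed only without A1 culture 2 or CHO-S culture 3 (-0.22 each, adjusted p = 0.016 and 0.025). Bad was lower in A0 (-0.38, adjusted p = 0.030), a call lost without A0 culture 2 or 3 or CHO-S culture 1 or 2, at -0.39 to -0.26 (adjusted p from 0.068 to 0.20), and the groups overlapped. Bad in A1 differed by -0.0065 (95% interval -0.23 to 0.22), and Bax differed from CHO-S by -0.11 in A0 and 0.10 in A1 and did not pass.

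At stationary phase these contrasts rest on the shallow CHO-S culture, so both fits are given. For A0 5 members passed with it, against 40% of all genes, and 7 without it, against 51.8% of all genes and 68.6% of those with at least 5 CPM. For A1 2 passed with it, against 34.8% of all genes, and 6 without it, against 57.4% of all genes and 74.6% of those with at least 5 CPM. Mcl1 was lower in both lines in both fits, by 2.53 and 2.38 on the log2 scale in A0 and by 2.25 and 2.12 in A1. Bcl2l2 was 2.02 times as high in A0 as in CHO-S with the culture and 2.04 times without it. Bcl2l11 was lower in A0 in both fits (-0.90 and -0.88), and in A1 it did not pass in either (-0.10 and -0.12). Bcl2l1 in A0 was lower by 0.70 with the culture and by 0.80 without it, and the first of these was lost without CHO-S culture 2 (-0.51, adjusted p = 0.090).

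Bak1 and Bid depended more on which CHO-S cultures were used. Bak1 was lower in A0 by 0.76 with all CHO-S stationary cultures (adjusted p = 0.031), a call lost on leaving out any 1 A0 culture or CHO-S culture 2 or 3, at -0.78 to -0.53 (adjusted p from 0.070 to 0.19). Without CHO-S culture 1 A0 was at 0.499 times the CHO-S level (adjusted p = 7.4e-07). In A1 it was -0.65 (adjusted p = 0.12) with the culture and -0.93 (adjusted p = 3.1e-20) without it. Bid was lower in A1 by 0.76 (adjusted p = 0.021), a call lost without any 1 A1 culture or CHO-S culture 2 or 3, at -0.79 to -0.67 (adjusted p from 0.074 to 0.089), and by 0.95 without CHO-S culture 1 (adjusted p = 1.4e-20). Without that culture A0 was also lower in Bid (-0.47, adjusted p = 0.0016) and in Bad (-0.95, adjusted p = 0.00030), and A1 was lower in Bcl2l1 (-0.47, adjusted p = 1.2e-07) and Bad (-0.47, adjusted p = 0.0049) and higher in Bcl2l2 (0.29, adjusted p = 0.0026). With it these differences did not pass, at -0.32 and -0.79 in A0 and at -0.33, -0.33 and 0.32 in A1. Bcl2 and Bax did not pass in either fit. With the culture Bcl2 differed from CHO-S by 0.09 in A0 and 0.18 in A1, and Bax by 0.02 and -0.01. Without it the values were 0.06 and 0.13 for Bcl2 and -0.17 and -0.21 for Bax.

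Ratios of counts within a culture do not depend on how libraries are scaled, and they set members against each other. Gene lengths differ, so a ratio says nothing of which transcript is more abundant and is read only across cultures. The log2 ratio of Bcl2l1 to Bcl2l2 counts was -0.36 ± 0.17 (SD, n = 4) in exponential cultures of A0, against 0.92 ± 0.18 (SD, n = 3) in exponential A1, and 1.27 ± 0.05 in CHO-S. At stationary phase it was -0.87 ± 0.11 in A0, 0.21 ± 0.10 in A1 and 0.82 ± 0.30 in CHO-S, lower than at exponential phase in each line. The shallow CHO-S stationary culture 1 was at 0.56, and cultures 2 and 3 were at 1.15 and 0.75. A0 and A1 did not overlap at either phase, since the highest A0 value was -0.13 and the lowest A1 value 0.14. The ratio of Mcl1 to Bcl2l1 was 1.40 ± 0.09 in exponential A0 and 0.57 ± 0.02 in exponential A1, but 0.87 ± 0.29 and 0.77 ± 0.18 at stationary phase, where the lines overlapped. CHO-S lay above both, at 2.47 ± 0.02 and 2.73 ± 0.49. The higher CHO-S mean at stationary phase rested on the shallow culture 1, at 3.29, as cultures 2 and 3 were at 2.36 and 2.54.

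The ratio of Bcl2l11 to Bcl2l1 sets a BH3-only activator against a survival member that binds it. It rose in mean from -1.22 ± 0.30 to -0.62 ± 0.32 in A0, from -1.16 ± 0.10 to -0.20 ± 0.15 in A1 and from -1.22 ± 0.13 to -0.39 ± 0.26 in CHO-S, as a description with no test. The shallow CHO-S stationary culture 1 was at -0.10, and cultures 2 and 3 were at -0.53 and -0.56. The phases did not overlap in A1 or CHO-S. In A0 they did, although the ratio was higher at stationary phase in all 4 same-numbered pairs, and cultures 3 and 4 had higher ratios than cultures 1 and 2 at both phases. The ratio of Bcl2l11 to Mcl1 went from -2.62 ± 0.21 to -1.49 ± 0.22 in A0 and from -1.73 ± 0.12 to -0.97 ± 0.06 in A1. CHO-S went from -3.70 ± 0.11 to -3.12 ± 0.25, with stationary culture 1 at -3.39. For this ratio phases did not overlap in any line, nor did A0 and A1 at either phase, again with no test. Ratios to Bax were computed too and are not given.

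**Figure D4:**
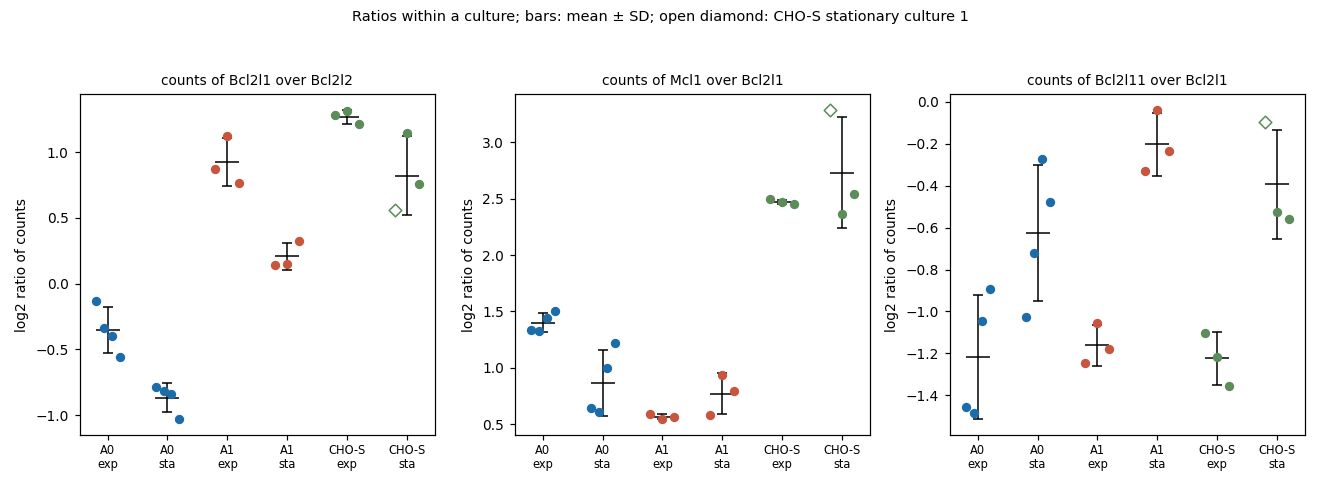
Log2 ratio of counts of pairs of members within each culture, for A0, A1 and CHO-S at both phases. Points are cultures, bars are means and SD, and the open diamond is CHO-S stationary culture 1. The Bcl2l1 to Bcl2l2 ratio lies below 0 in every A0 culture and above 0 in every A1 and CHO-S culture.

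The wider mitochondrial pathway was described with 34 further genes of the table, in lists of other BH3-only proteins, other Bcl2 homologues, BNIP proteins, released mitochondrial factors, outer membrane channels and regulators of the family. From exponential to stationary phase 15 of 31 tested passed in A0, 6 higher and 9 lower, with a median log2 fold change of -0.05 against 4.9e-05 over all genes, of which 37.6% passed (55.1% of those with at least 5 CPM). In A1 17 of 30 passed, 7 higher and 10 lower, with a median of -0.13 against 0.03 over all genes, of which 33.4% passed (50.9% of those with at least 5 CPM). CHO-S had 7 of 31 with stationary culture 1, against 13.3% of all genes and 17.9% of those with at least 5 CPM. Without that culture 20 of 31 passed, against 47.7% of all genes and 67.5% of those with at least 5 CPM. The counts thus lay above the shares over all genes and near those of genes with at least 5 CPM. Ddit3 (Chop), a transcription factor of the stress response that is known to act on Bcl2 and Bcl2l11, had the largest rise among the named genes of both producing lines. It went from 26.3, 25.97, 24.4 and 19.4 CPM to 375, 368, 308 and 241 CPM in A0 (log2 fold change 3.74, adjusted p = 1.2e-10) and from 39.9, 51.0 and 34.7 CPM to 222, 197 and 209 CPM in A1 (2.34, adjusted p = 7.9e-19). In CHO-S it was at 25.3, 23.4 and 26.05 CPM and then 221, 104 and 106 CPM (2.49, adjusted p = 0.0046, and 2.07 without stationary culture 1).

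All 3 voltage-dependent anion channels, the outer membrane pores with which family members interact, fell in A0 and in A1. Vdac1, Vdac2 and Vdac3 had log2 fold changes of -0.55, -0.41 and -0.57 in A0 and of -0.40, -0.52 and -0.36 in A1, with adjusted p of 0.0041 or lower. Of all genes 20% were called lower in A0 and 17.8% in A1. In CHO-S 0 of the 3 passed with all stationary cultures, against 13.3% of all genes. Their CHO-S means were 231, 349 and 187 CPM at exponential phase, and 217, 346 and 138 CPM in stationary cultures 2 and 3. Among factors that leave the mitochondrion once it is permeable, Aifm1 fell by 0.84 in A0 and 0.56 in A1 on the log2 scale, and Endog by 0.96 and 0.58. Aifm1 fell in CHO-S too (-0.69, adjusted p = 0.012), a call that held in 1 of 6 fits that left out 1 culture. Endog went from a mean of 5.58 to 2.94 CPM in CHO-S and did not pass. The A1 call of Endog was lost without exponential culture 3 (-0.51, adjusted p = 0.055). Diablo, another of these released factors, fell as well, by 0.28 in A0 and 0.24 in A1. Htra2, a further one, did not pass. Its means at exponential and stationary phase were 44.3 and 47.2 CPM in A0 and 38.0 and 36.7 CPM in A1. In each line 3 of the 6 genes of this list were called, all lower. Apaf1, the scaffold of the apoptosome, and Xiap, an inhibitor of caspases, did not pass in either line. Bcl2l12 (0.71 and 0.47) and Bnip1 (0.59 and 0.22) rose in both lines.

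**Figure D5:**
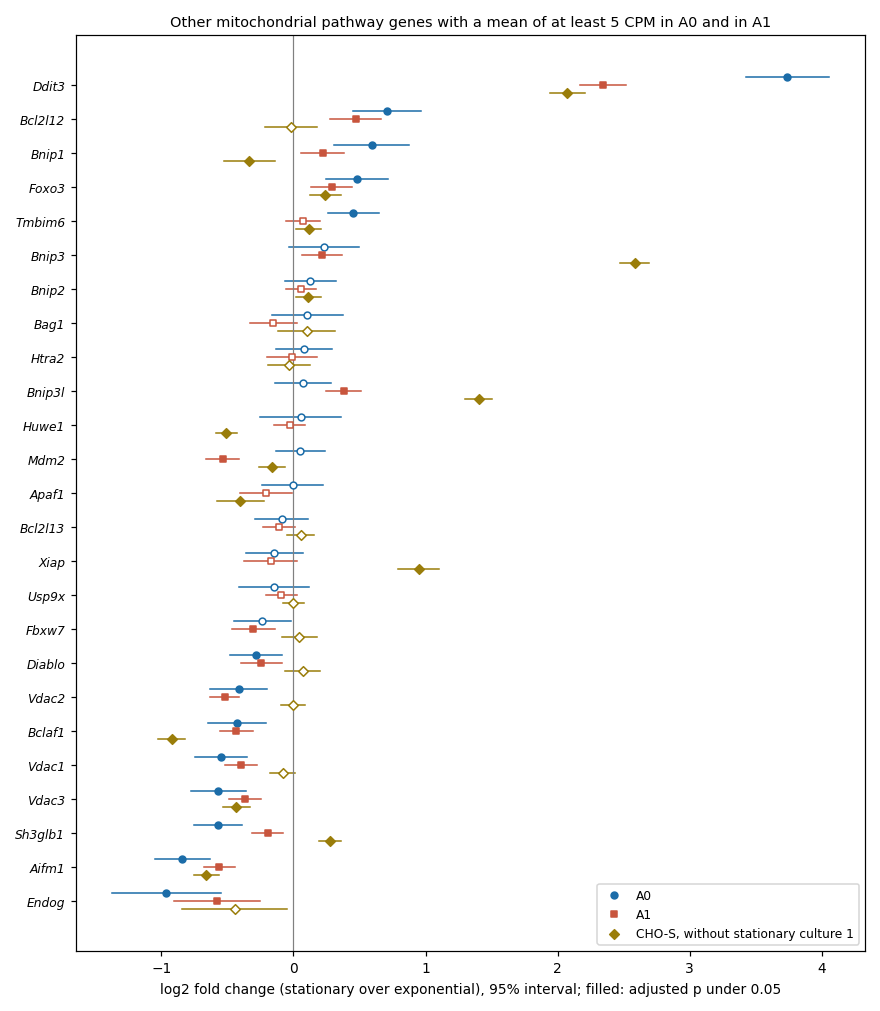
Log2 fold change at stationary over exponential phase, with its 95% interval, of 25 other pathway genes with a mean of at least 5 CPM in A0 and in A1. Filled symbols have an adjusted p under 0.05, and CHO-S is drawn without stationary culture 1. Ddit3 lies furthest to the right in A0 and A1, and Bnip3 does so in CHO-S.

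Of the 5 BNIP genes, 3 had a phase response that differed between CHO-S and each producing line. Over all genes 10.3% passed this test for A0 and 7.6% for A1, and 17.2% and 12.6% of those with at least 5 CPM. Both fits hold the shallow CHO-S stationary culture 1. Bnip3 and Bnip3l, whose products act in removal of mitochondria, had the higher response in CHO-S, and Bnip1 the lower one (interactions of 0.97 for A0 and 0.59 for A1). In A1 4 of the 5 rose, among them Bnip3l by 0.38 (adjusted p = 2e-05) and Bnip3 by 0.22 (adjusted p = 0.021), and in A0 only Bnip1. Of all genes 15.6% were called higher in A1 and 17.6% in A0. Bnip3 had 52.1, 52.5 and 48.0 CPM in exponential CHO-S cultures and 366, 332 and 273 CPM in stationary ones (log2 fold change 2.67, adjusted p = 0.0013, and 2.58 without stationary culture 1). It stayed between 30.2 and 55.3 CPM in all 14 cultures of A0 and A1. Bnip3l rose in CHO-S as well (1.45, adjusted p = 0.0029). These CHO-S calls were lost without exponential culture 2 (2.70 and 1.46, adjusted p = 0.051 for both), as was that of Ddit3 (2.47, adjusted p = 0.056), in a fit that called 0 of all genes. The interaction of phase and line was -2.44 for Bnip3 between A0 and CHO-S (adjusted p = 6.7e-07) and -2.45 between A1 and CHO-S (adjusted p = 7.8e-06).

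Between A1 and A0, 13 of 33 pathway genes passed at exponential phase, 7 higher and 6 lower in A1, and 16 of 30 at stationary phase, 5 higher and 11 lower. Over all genes 25.7% and 33.7% passed, and 38% and 48% of those with at least 5 CPM. Bmf, a BH3-only protein of the same class as Bcl2l11, had the largest difference toward A1 of the named genes at both phases. It had 3.66, 3.08, 3.48 and 6.71 CPM in exponential A0 and 11.3, 13.8 and 12.2 CPM in exponential A1, 2.94 times as high (log2 fold change 1.56, adjusted p = 0.00013). At stationary phase it was 1.31 higher (adjusted p = 2.9e-05). CHO-S lay above both, at 19.6, 22.2 and 21.04 CPM in exponential cultures. Xiap was lower in A1 at both phases (-0.76 and -0.82), at 20.9, 23.1 and 21.8 CPM in exponential A1 against 38.6, 40.5, 36.9 and 31.9 CPM in A0. Ddit3 was higher in A1 at exponential phase (0.80, adjusted p = 0.00054) and lower at stationary phase (-0.64, adjusted p = 0.0012). The BH3-only genes Pmaip1 and Bik had at most 1 and 11 counts in any culture.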

How the data were processed

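RNA of 24 libraries was sequenced, and the authors aligned the reads with STAR 2.5.4b to the Chinese hamster genome (C_griseus_v1.0) and counted them per gene with HTSeq-count (HTSeq 0.7.2). The strand setting is not given in the sources used here, so overlapping and antisense genes are uncertain. Reads with several alignments are not assigned to a gene by HTSeq-count. The deposited values are raw counts. The 5 summary lines of the table, 31.8% to 49.8% of the reads of a library, stayed out of library sizes and tests. Samples were grouped by the titles in the labels. A0 exponential libraries of the same culture number were summed, which gave 20 cultures. Nothing in the labels says that cultures were started separately, so p-values measure the spread between these cultures, which may be partly technical.

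The gene filter asked for 1 count or more in 2 or more libraries, and the remaining genes were tested in R 4.3.3 with edgeR 4.0.16 (TMM, quasi-likelihood test, two-sided, Benjamini-Hochberg over all genes tested, threshold 0.05), with only the groups compared in each of 12 fits. CPM were normalized by TMM over all cultures. The procedure was tested on simulated data with 2-fold and 4-fold changes in genes with at least 5 CPM, and no culture set apart from its group. It recovered 68% to 100% of the 2-fold changes, depending on the fit. Smaller changes, as most member differences here are, were not simulated. Alternatives covered DESeq2 1.42.0, other scalings and filters, a fit over 6 groups, a replicate block, the A0 libraries used and leaving out each culture. Fits with A0 cultures 1 and 2 or 3 and 4 alone were added after the values were seen. Same-numbered A0 cultures of the 2 phases deviated together (correlations of 0.19 to 0.424 over 4 pairs), but only 2 of the 4 matched best with their own number. Pairing by number was thus read from the data and is not certain. The main A0 fit left the cultures unpaired, and the blocked fit called the same number of members, 7. The other comparisons showed no such pairing.

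Values of the members were given in every comparison of 2 groups, apart from Bok. Of the other pathway genes, up to 3 per direction were named, those with the largest change among genes with an adjusted p under 0.05, at least 5 CPM and no overlap of the groups, and further genes (such as the Vdac genes, Diablo, Apaf1, Pmaip1 and Bik) were named after their values were seen. Members and lists were chosen with earlier results of these data known. Some results are not reported here. No sequences or coordinates are given, since the reference used here is of another assembly.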

Additional observations from a re-analysis of the deposited data

Results flagged for a closer look

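The results below were singled out because the phase response of a gene differed between lines by the interaction test of edgeR, and no explanation was tested. All values are differences in log2 fold change with adjusted p. Among the members, Mcl1 differed by 0.51 between A1 and A0 (adjusted p = 0.011) and by -0.66 between A0 and CHO-S (adjusted p = 0.017). The lists of other pathway genes that follow are not complete. Between A1 and A0, 5 of 33 of these genes passed, against 8.92% of all genes and 15.8% of those with at least 5 CPM. Those listed here were Sh3glb1 (0.34, adjusted p = 0.046), Ddit3 (-1.44, adjusted p = 1e-04), Mdm2 (-0.63, adjusted p = 0.0011) and Tmbim6 (-0.42, adjusted p = 0.031). Between A0 and CHO-S 7 of 32 passed, against 10.3% of all genes and 17.2% of those with at least 5 CPM. Those listed here were Ddit3 (1.27, adjusted p = 0.0088), Bnip1 (0.97, adjusted p = 0.009), Bcl2l12 (0.89, adjusted p = 0.049), Bnip3 (-2.44, adjusted p = 6.7e-07), Bnip3l (-1.38, adjusted p = 3.1e-05) and Xiap (-1.21, adjusted p = 0.00021). Between A1 and CHO-S 7 of 32 passed, against 7.6% of all genes and 12.6% of those with at least 5 CPM. Those listed here were Bnip1 (0.59, adjusted p = 0.022), Huwe1 (0.46, adjusted p = 0.03), Bnip3 (-2.45, adjusted p = 7.8e-06), Xiap (-1.20, adjusted p = 0.00057) and Bnip3l (-1.07, adjusted p = 0.00068). The calls of Sh3glb1, Tmbim6, Bcl2l12, Huwe1 and Bnip1 in A1 were each lost on leaving out 1 of several cultures. None of the 18 groups of member levels with 4 cultures held a value that stood apart by Dixon's test.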

How the results depend on the processing

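Of 1827 member values under alternatives, 1656 kept direction and side of the threshold, 75 kept direction but were no longer past it (44 by leaving out 1 culture), 38 newly passed and 58 changed direction, 0 of them past the threshold in either fit. Of 45 called member results, 26 passed under every alternative run. The cause of the changes below was not tested. The number of members called for the phase response was 3 in A0 with cultures 3 and 4 alone, 2 in A1 with all 6 groups in one fit, and 0 in CHO-S with total counts in place of TMM, with no filter or with a replicate block. At stationary phase it was 3 for A0 against CHO-S with a replicate block or with A0 cultures 1 and 2 alone, and 5 for A1 against CHO-S with 6 groups in one fit. For the interaction of A1 and A0 it was 0 with 6 groups in one fit, 2 with a replicate block (Mcl1, and Bid at -0.37, adjusted p = 0.038) and 3 with A0 cultures 1 and 2 alone, and for A0 and CHO-S 0 with A0 cultures 3 and 4 alone. The block left the other counts within 1.5 times. The culture numbers are not shown to pair cultures, with some sign of pairing only for A0 phase. Calls over all genes moved in the same fits, from 7641 to 5016 for A0 with cultures 3 and 4, from 6196 to 2469 for A1 with 6 groups in one fit, and from 1871 to 973, 3432 and 4586 for the interaction of A1 and A0. Leaving out 1 culture gave 0 to 6 members for the CHO-S phase response (6 without stationary culture 1), where calls over all genes ran from 0 without exponential culture 2 to 8269 without stationary culture 1, 3 to 6 for A1 against A0, 3 to 7 for A0 against CHO-S and 1 to 6 for A1 against CHO-S at stationary phase, and 0 to 1, 0 to 2 and 0 to 3 for the interactions of A1 and A0, A0 and CHO-S, and A1 and CHO-S.

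Values that changed sign, none of them called, were as follows. With total counts in place of TMM, the A1 phase response was 0.020 for Bax and 0.040 for Bid, Bad was 0.062 in A1 against CHO-S at exponential phase, Bax was 0.036 in A1 against A0 and 0.14 in A1 against CHO-S at stationary phase, Bcl2l11 was 0.067 there, and the A1 and A0 interaction of Bcl2l2 was 0.0038. With edgeR's own filter (filterByExpr), Bid was 0.0037 in the A1 phase response and Mcl1 0.011 in that of CHO-S. With DESeq2, Bax was -0.033 in the CHO-S phase response and 0.089 in A1 against CHO-S at stationary phase. With the replicate block, Bax was -0.097 and 0.17 in these comparisons, and Bak1 -0.0066 in A1 against A0 at exponential phase. With 6 groups in one fit, Bax was -0.032 in A0 against CHO-S at stationary phase. With A0 cultures 1 and 2 alone, Bcl2 was 0.017 in A1 against A0 and Bax 0.014 in A0 against CHO-S at exponential phase, Bcl2 was -0.065 in A0 against CHO-S at stationary phase, and the A0 and CHO-S interaction of Bcl2l11 was 0.0033. With cultures 3 and 4 alone, Bak1 was -0.0014 in A1 against A0 at exponential phase, Bcl2 -0.047 and Bax 0.098 at stationary phase, Bax -0.076 in A0 against CHO-S at stationary phase, and the A1 and A0 interaction of Bcl2l2 0.093. With the first A0 libraries only, that interaction was 0.044 for Bcl2l2 and -0.021 for Bad. Leaving out 1 culture gave ranges across 0 of -0.14 to 0.079 (Bax) and -0.090 to 0.025 (Bid) for the A1 phase response, and of -0.17 to 0.028 (Mcl1), -0.12 to 0.24 (Bax), -0.44 to 0.0050 (Bak1) and -0.044 to 0.25 (Bid) for that of CHO-S. At exponential phase they were -0.099 to 0.043 (Bcl2) and -0.0078 to 0.076 (Bak1) for A1 against A0 and -0.12 to 0.11 (Bad) for A1 against CHO-S. At stationary phase they were -0.072 to 0.21 (Bcl2) and -0.13 to 0.11 (Bax) for A1 against A0, -0.17 to 0.25 (Bax) for A0 against CHO-S and -0.21 to 0.16 (Bax) for A1 against CHO-S. For interactions they were -0.028 to 0.25 (Bcl2) and -0.099 to 0.025 (Bcl2l2) for A1 and A0, -0.031 to 0.28 (Bax) and -0.18 to 0.0049 (Bcl2l11) for A0 and CHO-S, and -0.18 to 0.0055 (Mcl1) for A1 and CHO-S. Total counts moved the share of higher calls over all genes from 46.7% to 57.6% for the A1 phase response, from 52.3% to 63.3% for A1 against CHO-S at stationary phase, and from 36.5% to 48% and from 50.4% to 61.9% for the interactions of A0 and A1 with CHO-S. They moved the median of all genes from 0.06 to 0.22 for A1 against CHO-S and from 0.08 to 0.19 for A0 against CHO-S at stationary phase.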
